A study of Mus musculus with 24 samples.

Results

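The aminoacyl-tRNA synthetases and the translation initiation factors supply protein synthesis with charged tRNAs and with ribosomes placed at start codons. Their genes were taken by symbol. Synthetase symbols are a letter for the amino acid followed by ars, with or without a final 1 or 2, together with Farsa, Farsb and Eprs. Initiation factor symbols are Eif followed by a number from 1 to 6, and the Eif2ak kinases and pseudogenes marked -ps were left out. This gave 87 of the 33034 genes in the table: 20 cytosolic synthetases, 14 mitochondrial synthetases (symbols ending in 2) and 53 genes with an initiation factor name.

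RNA was sequenced from MOVAS cells, an established mouse aortic smooth-muscle line, in 24 libraries that fall into 8 groups of 3. Unedited cells were used as they are (WT) or with an ADAM9 inhibitor that the labels do not name (ADAM9i, also of WT genotype). Edited cells carried a knockout at Rosa26 (Rosa26-KO), a locus commonly cut to control for editing, or at Adam9 (Adam9-KO), which encodes a membrane-bound metalloprotease. Each of these 4 backgrounds was given vehicle or rhCTHRC1, the recombinant human form of the secreted protein CTHRC1. Doses, times and clones are not in the labels, the letters sg2 in the Adam9-KO titles are not explained, and nothing states that the libraries of a group came from separate cultures, so the p-values measure the spread between these libraries, which may be technical. WT titles hold a letter that changes with the treatment and is not explained.

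Each synthetase joins 1 kind of amino acid to its tRNAs, and nuclear genes encode largely separate sets for the cytosol and for mitochondria, although Gars and Kars serve both. Several cytosolic synthetases sit together in a multisynthetase complex. In initiation, eIF2 carries the initiator tRNA to the small ribosomal subunit and is reset by its exchange factor eIF2B, eIF3 scaffolds the small subunit, and the eIF4 proteins bind the mRNA cap and unwind the leader. In mammals, phosphorylation of eIF2 lowers general initiation but favours translation of the factor ATF4, which activates genes of amino acid supply, among them many synthetase genes.

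The libraries held 53135752 to 65833125 counts in genes, and the limit that 0 counts set on a gene (3 counts, counting error only) was 0.0446 to 0.0577 CPM, depending on the library. Levels are CPM, the reads of a gene relative to all counted reads, with edgeR's TMM scaling between libraries, and log2 changes are given ± SE from edgeR's quasi-likelihood fit. A gene is called higher or lower at an adjusted p under 0.05, and a value in parentheses after a gene is its log2 change or difference in the comparison described. Under vehicle the Adam9-KO libraries held 139 ± 10.1 CPM of Adam9 and the Rosa26-KO libraries 236 ± 6.36 CPM (SD, n = 3; log2 difference -0.78 ± 0.046, adjusted p = 3.59e-08), so its transcripts were lower but present in the knockout. Mouse Cthrc1 was at 0 counts in all libraries but 1, at 0.0545 CPM. Smooth-muscle markers were low apart from Acta2 (39.1 to 482 CPM over all libraries): Tagln stayed at 15.5 CPM or less, Cnn1 at 1.87 or less and Myh11 at 0.855 or less. The 6 markers summed to 429 to 439 CPM in Rosa26-KO vehicle libraries and 51.1 to 52.5 CPM with rhCTHRC1, and to 208 to 269 and 52.6 to 61.2 CPM in the WT groups. The 3 fibroblast markers, nearly all Pdgfra, summed to 245 to 268 CPM and 393 to 409 CPM in the Rosa26-KO groups and to 44.7 to 50.9 CPM and 282 to 305 CPM in the WT groups. In Rosa26-KO cells 3 of the 6 smooth-muscle markers fell with rhCTHRC1 (Acta2 -3.35, Myocd -1.80 and Tagln -1.44) and 2 of the 3 fibroblast markers rose, and none of these 9 markers was called in Adam9-KO cells. The part of these markers in the results below was not tested. Summed endothelial, macrophage and epithelial markers reached at most 1.42, 2.48 and 0.408 CPM, with Cdh5 at 0 in 18 libraries, Adgre1 in 22 and Epcam in 23. In bulk RNA, fewer cells of a kind and less RNA per cell cannot be told apart.

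Of the 87 genes, 85 passed the filter on low counts in the fit of the knockout groups and 86 in the fits that hold WT and ADAM9i groups. Eif2c5, whose name is of the form once used for Argonaute genes, was listed at 0 to 0.131 CPM and tested nowhere, and Eif4a3l1 was not tested in the knockout fit. Some members have near-identical copies among which reads could be split: Eif4a1, Eif1, Eif5a and Eif3e (processed pseudogenes), and the pairs Eif3j1 and Eif3j2, Eif2s3x and Eif2s3y, Eif1a and Eif1ax, and Eif4a3l1 and Eif4a3l2. Their values are uncertain to that extent. By the coordinates in the table, 28 members overlap a gene on the other strand, among them Mars1 with Ddit3 and Hars with Hars2, and whether strand was used in counting is not stated.

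Per length, the initiation factors held the highest levels. In Rosa26-KO vehicle cells the largest FPKM (fragments scaled by transcript length and by depth) belonged to Eif3h, an eIF3 subunit, at 261 ± 0.627 FPKM (SD, n = 3). Eif5a, the hypusine-bearing factor that eases peptide bond formation, followed at 232 ± 6.68 FPKM, and then Eif4b, a cofactor of the eIF4A helicase, at 211 ± 3.29 FPKM. These 3 neighbours in the order were apart by more than their SDs. Gars, glycyl-tRNA synthetase, was the highest synthetase at 129 ± 1.81 FPKM, and Qars, glutaminyl-tRNA synthetase, the lowest cytosolic one at 16.4 ± 0.431 FPKM. Mitochondrial synthetases lay lower, from 1.27 ± 0.174 FPKM for Nars2 to 10.7 ± 0.220 FPKM for Iars2, so every one of the 14 was below the lowest cytosolic synthetase in this group. At the bottom, Eif4ebp3, Eif4e3, Eif4a3l1 and Eif4a3l2 had group means under 1 FPKM there.

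In Rosa26-KO cells the transcripts of nearly the whole cytosolic synthetase set were lower with rhCTHRC1. Summed over the 20 genes, the level was 5587, 5571 and 5527 CPM in the vehicle libraries and 3057, 2975 and 2861 CPM in the treated ones, and the ranges did not overlap. In the same libraries the summed smooth-muscle markers were at 429 to 439 and 51.1 to 52.5 CPM. Of the 20 genes, 19 fell and 1 rose, where 22% of all 18594 genes tested were called higher and 23.3% lower. The median log2 change was -0.96, beside 0.031 over all genes tested. At an added fold of at least 1.5, 15 of the 20 were lower, and 31 of all 85 members tested, beside 5.5% of all genes. All 71 calls had libraries that did not overlap between the groups, but overlap was not counted over all genes, so no share stands beside this. Over all members, 9 were called higher and 62 lower with a median of -0.47, and scaling by library size alone gave 11 and 58 and moved the share of higher genes among all those called from 48.6% to 59.3%.

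**Figure D1:**
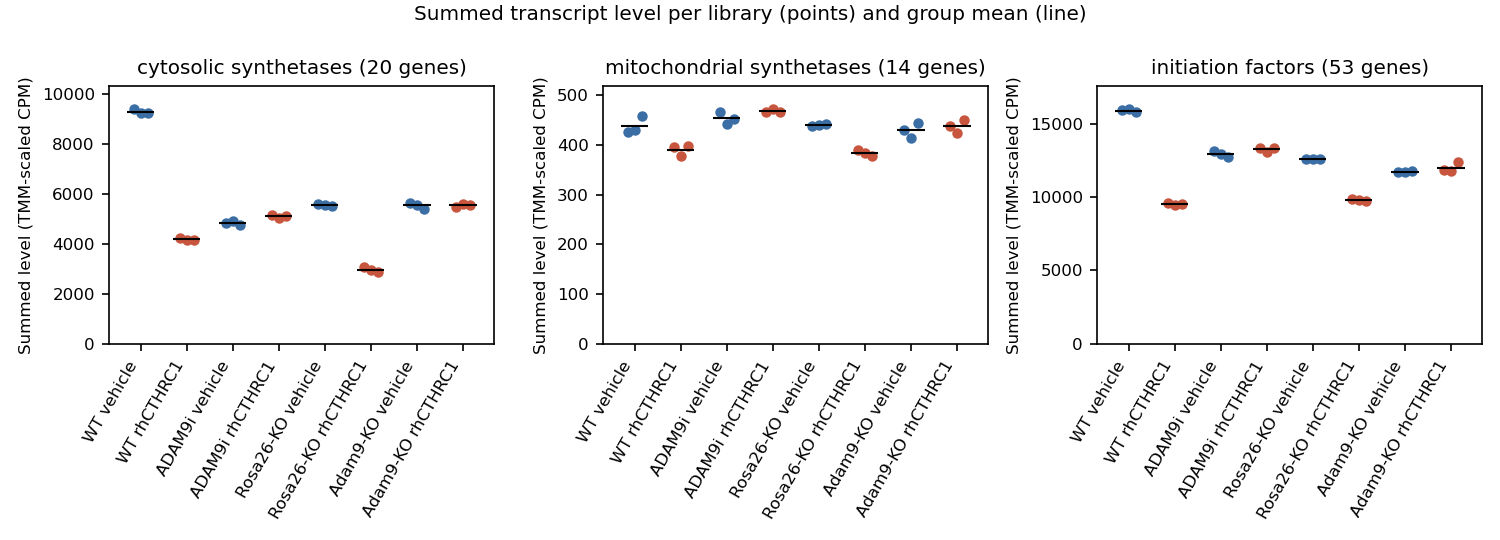
Summed transcript level (TMM-scaled CPM, vertical axis from 0) of the 20 cytosolic synthetases, the 14 mitochondrial synthetases and the 53 initiation factors in each library (points, blue for vehicle and red for rhCTHRC1) with the group mean (line). The cytosolic sum is highest in WT vehicle (9288 ± 82.0 CPM, SD, n = 3) and lowest in Rosa26-KO cells with rhCTHRC1 (2964 ± 98.9 CPM), and both Adam9-KO groups lie together (5545 ± 118 and 5544 ± 55.0 CPM).

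The largest fall among the synthetases was that of Yars, tyrosyl-tRNA synthetase (chr4:129189760-129219607, GRCm38). Its vehicle libraries held 248, 246 and 249 CPM and its treated libraries 109, 104 and 93.4 CPM. All 3 treated values were under all vehicle values, and the log2 change was -1.28 ± 0.044 (adjusted p = 1.12e-13). Tars, threonyl-tRNA synthetase, went from 389, 376 and 372 CPM to 170.4, 159 and 150.1 CPM, and Iars, isoleucyl-tRNA synthetase, from 257, 242 and 254 CPM to 115, 106 and 102 CPM. For both, too, the groups were well apart, with log2 changes of -1.24 ± 0.037 and -1.22 ± 0.048.

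Gars (chr6:55038007-55079500) had 451, 456 and 447 CPM under vehicle and 219, 206 and 191 CPM with rhCTHRC1, a log2 change of -1.14 ± 0.038 (adjusted p = 6.72e-14). Aars, alanyl-tRNA synthetase, had 877, 873 and 872 CPM and 429, 428 and 408 CPM, a log2 change of -1.05 ± 0.028 (adjusted p = 5.50e-15). The treated libraries thus held less than the vehicle libraries throughout for both genes. Wars, tryptophanyl-tRNA synthetase, which interferon induces in mammals, fell less, from 95.8, 104 and 95.8 CPM to 62.5, 58.2 and 59.0 CPM (log2 change -0.72 ± 0.044, adjusted p = 2.22e-10). The other falls ranged from -0.47 for Kars (lysyl) and -0.47 for Hars (histidyl) through -0.50 for Dars (aspartyl), -0.52 for Farsa (the alpha chain for phenylalanine), -0.64 for Rars (arginyl), -0.65 for Sars (seryl) and -0.80 for Vars (valyl). At the far end were Farsb (the beta chain for phenylalanine) at -0.95, Eprs (glutamyl and prolyl in 1 protein) at -0.97, Lars (leucyl) at -1.06, Nars (asparaginyl) at -1.09, Mars1 (methionyl) at -1.11 and Cars (cysteinyl) at -1.14. Both chains of phenylalanyl-tRNA synthetase fell, the beta chain by more.

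Qars was the exception. Its vehicle libraries held 123, 117 and 123 CPM and its treated libraries 131, 131 and 139 CPM, slightly higher in each, and the log2 change was 0.14 ± 0.037 (adjusted p = 0.00362). Qars belongs to the multisynthetase complex together with Eprs, Iars, Lars, Mars1, Kars, Rars and Dars, whose transcripts all fell. Of the 3 scaffold proteins of that complex, which are not synthetases, Aimp2 had a log2 change of -1.0 ± 0.085 and Eef1e1 (AIMP3) one of -1.18 ± 0.10, both called, while Aimp1 was not called at -0.046 ± 0.049.

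**Figure D2:**
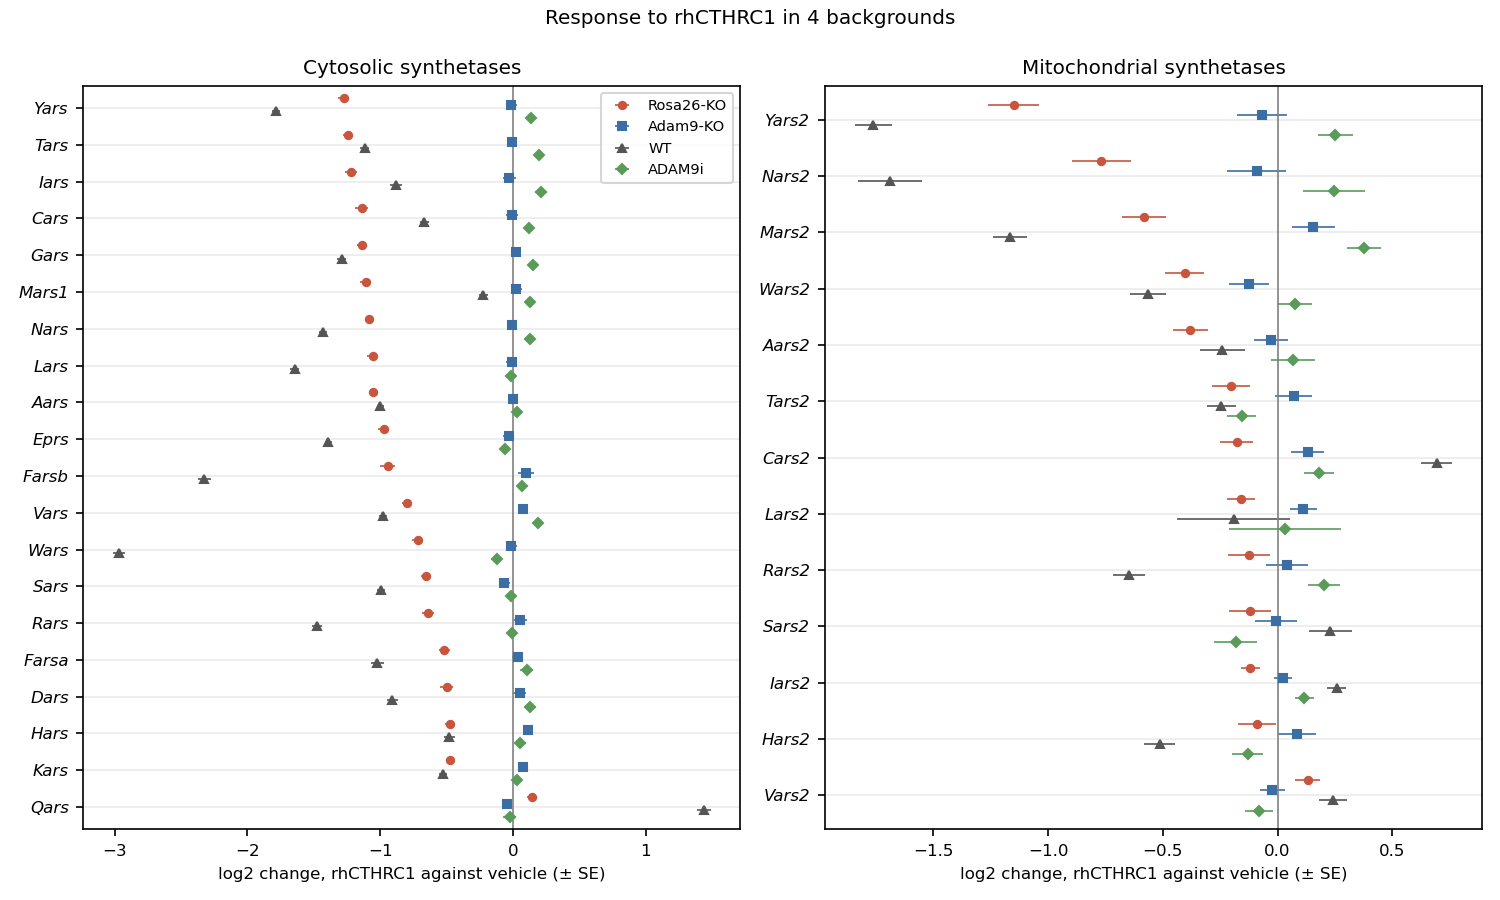
Log2 change with rhCTHRC1 against vehicle (points, bars are SE) of the 20 cytosolic (left) and 13 mitochondrial (right) synthetases in Rosa26-KO (red circles), Adam9-KO (blue squares), WT (grey triangles) and ADAM9i (green diamonds) cells. In the left panel 19 Rosa26-KO points lie below 0 and all Adam9-KO points lie between -0.064 and 0.11. The WT points use the WT vehicle libraries, which stand apart from the other vehicle groups.

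Promoter windows from 250 bases before to 50 bases after the start were read from RefSeq (GRCm38.p6) for the 66 of 87 members that matched by symbol. The letters TGATGNAA, the core of the element bound by C/EBP and ATF4 pairs, were found on either strand in 5 of 13 cytosolic synthetase promoters, 0 of 12 mitochondrial ones and 1 of 41 initiation factor promoters (Eif2s3x), beside 4.51% of 27025 genes in the table. Those of Gars, Iars, Tars and Yars are shown because these genes were among those that fell furthest. Each line runs 5′ to 3′ on the gene's strand, with the match in capitals.
Gars: ggctgcgctaTTTCATCAtgcaccgggc
Iars: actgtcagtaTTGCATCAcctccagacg
Tars: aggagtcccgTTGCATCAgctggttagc
Yars: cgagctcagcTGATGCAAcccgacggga
They lie at chr6:55037961-55037988 (plus strand), chr13:49682127-49682154 (plus strand), chr15:11399656-11399683 (minus strand) and chr4:129189896-129189923 (plus strand). The capitals in Yars read in the gene's direction and in the other 3 on the opposite strand. The matches of Gars and Tars begin 30 and 15 bases before the start, and those of Yars and Iars at base 4 and base 8 of the transcript. The fifth gene is Aars. The log2 change in Rosa26-KO cells was between -1.28 and -1.05 for all 5 genes. It was between -1.11 and 0.14 for the 8 cytosolic synthetases whose window holds no match (Dars, Eprs, Farsa, Farsb, Kars, Mars1, Qars and Sars). Of the cytosolic synthetases that had no window, Cars, Lars and Nars fell within the range of the 5 genes, and Hars, Rars, Vars and Wars fell by less. The part of the matches in the falls was not tested. The E-box CACGTG was in 4 of 13 cytosolic synthetase, 0 of 12 mitochondrial and 10 of 41 initiation factor promoters, beside 8.09% of all genes, and GAAANNGAA, the core of the interferon-stimulated element, in 1, 0 and 3, beside 9.76%. The E-box and TGATGNAA matches of Iars and Tars did not overlap. A match describes the letters in the window and shows no binding. The table had no entry for Cars, Hars, Lars, Nars, Rars, Vars, Wars, Hars2, Eif1a, Eif2b3, Eif3e, Eif3h, Eif3i, Eif3j2, Eif4a3l2, Eif4e3, Eif4ebp1, Eif4ebp3, Eif4g2 and Eif6.

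The mitochondrial synthetases changed less as a group. Of the 14, 8 fell, 0 rose and 6 were not called in Rosa26-KO cells, beside 23.3% lower and 22% higher of all genes. Their median log2 change was -0.19, and their summed level was 439, 440.3 and 442 CPM under vehicle and 389.5, 384 and 377 CPM with rhCTHRC1. A few members carried larger falls. Yars2, the mitochondrial tyrosyl enzyme, went from 25.3, 22.2 and 19.7 CPM to 10.5, 10.8 and 8.99 CPM (log2 change -1.15 ± 0.11, adjusted p = 8.50e-08). Nars2 (asparaginyl) went from 10.7, 10.7 and 8.38 CPM to 5.91, 6.02 and 5.52 CPM and Mars2 (methionyl) from 19.3, 16.3 and 17.8 CPM to 11.8, 10.7 and 13.1 CPM, with log2 changes of -0.77 ± 0.13 and -0.58 ± 0.095. In these 3 genes no treated library reached a vehicle library. Lars2, the leucyl enzyme, held 53.5, 53.4 and 51.3 CPM and 48.4, 45.8 and 47.1 CPM. Its groups were close without overlap (log2 change -0.16 ± 0.061, adjusted p = 0.0376), and the call was lost when Rosa26-KO vehicle library 1 or 2 or treated library 2 or 3 was left out and with library size alone. Wars2, Aars2 and Iars2 fell by 0.41, 0.38 and 0.12 on the log2 scale. The call for Iars2 was lost without vehicle library 2 or treated library 3 and with library size alone.

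The initiation factors were lower in most families with rhCTHRC1 in Rosa26-KO cells. Of 51 tested, 35 fell, 8 rose and 8 were not called, beside 23.3% lower and 22% higher of all genes. The median log2 change was -0.41, and the summed level was 12567, 12587 and 12586 CPM under vehicle and 9849, 9825 and 9743 CPM with rhCTHRC1. Eif5a (chr11:69916714-69921958) fell the most of all 85 members tested. It went from 632, 619 and 601 CPM to 257, 244 and 240.4 CPM, with no treated library near a vehicle library (log2 change -1.32 ± 0.059, adjusted p = 5.00e-10). Of the other eIF5 genes, Eif5, which triggers GTP hydrolysis by eIF2, changed by -0.49, Eif5b, which joins the subunits, by -0.41 and Eif5a2 by -0.36, all called. Eif6, which keeps free large subunits from joining, had 105, 110.5 and 102 CPM and then 80.1, 75.6 and 73.8 CPM (log2 change -0.47 ± 0.047).

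In the eIF2 group all 3 subunits of the complex fell, apart from the Y-linked copy of the gamma subunit. Eif2s1, the alpha subunit that stress kinases phosphorylate, had 118, 108 and 109 CPM under vehicle and 69.8, 69.2 and 65.4 CPM with rhCTHRC1 (log2 change -0.71 ± 0.052, adjusted p = 2.66e-09). Eif2s2, the beta subunit, had 296, 294 and 297 CPM and 160.3, 163 and 159.8 CPM (log2 change -0.88 ± 0.032). Neither gene showed overlap between the groups. Eif2s3x changed by -0.53 and Eif2s3y by 0.18, called in opposite directions, and reads from these near-identical genes may be shared. The call for Eif2s3y was lost without vehicle library 2, treated library 2 or treated library 3. All 5 eIF2B genes fell (Eif2b3 from 25.9, 25.2 and 24.1 CPM to 14.1, 16.3 and 13.9 CPM), from -0.27 for Eif2b2 to -0.76 for Eif2b3, the gamma subunit of its catalytic part. Eif2a and Eif2d, which can deliver initiator tRNA without eIF2, were not called (0.052 ± 0.043 and -0.097 ± 0.079). The next family holds the genes for eIF1 and eIF1A, which serve start codon scanning, and their relatives by name. Of these genes 4 of 5 fell, among them Eif1ad at -0.66, Eif1a at -0.63 and Eif1 at -0.46, and Eif1b was not called (-0.063 ± 0.086).

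Of the 14 eIF3 genes 9 fell and 3 rose, beside 23.3% lower and 22% higher of all genes. Eif3b, part of the core that binds the small subunit, changed by -0.75 ± 0.047, and Eif3j1, Eif3c, Eif3j2, Eif3a, Eif3d, Eif3i, Eif3g and Eif3l also fell, by 0.77 to 0.19 on the log2 scale. Eif3f had 194, 183 and 180.2 CPM under vehicle and 227, 233 and 228 CPM with rhCTHRC1, higher in each treated library (log2 change 0.30 ± 0.038, adjusted p = 2.13e-06). Eif3h and Eif3k rose too, by 0.18 and 0.16, while Eif3e and Eif3m were not called (-0.044 ± 0.031 and -0.030 ± 0.040). The genes that rose or were not called all encode subunits with a PCI or MPN domain, as do a, c and l, which fell. This grouping by domain was noticed after the values were seen.

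**Figure D3:**
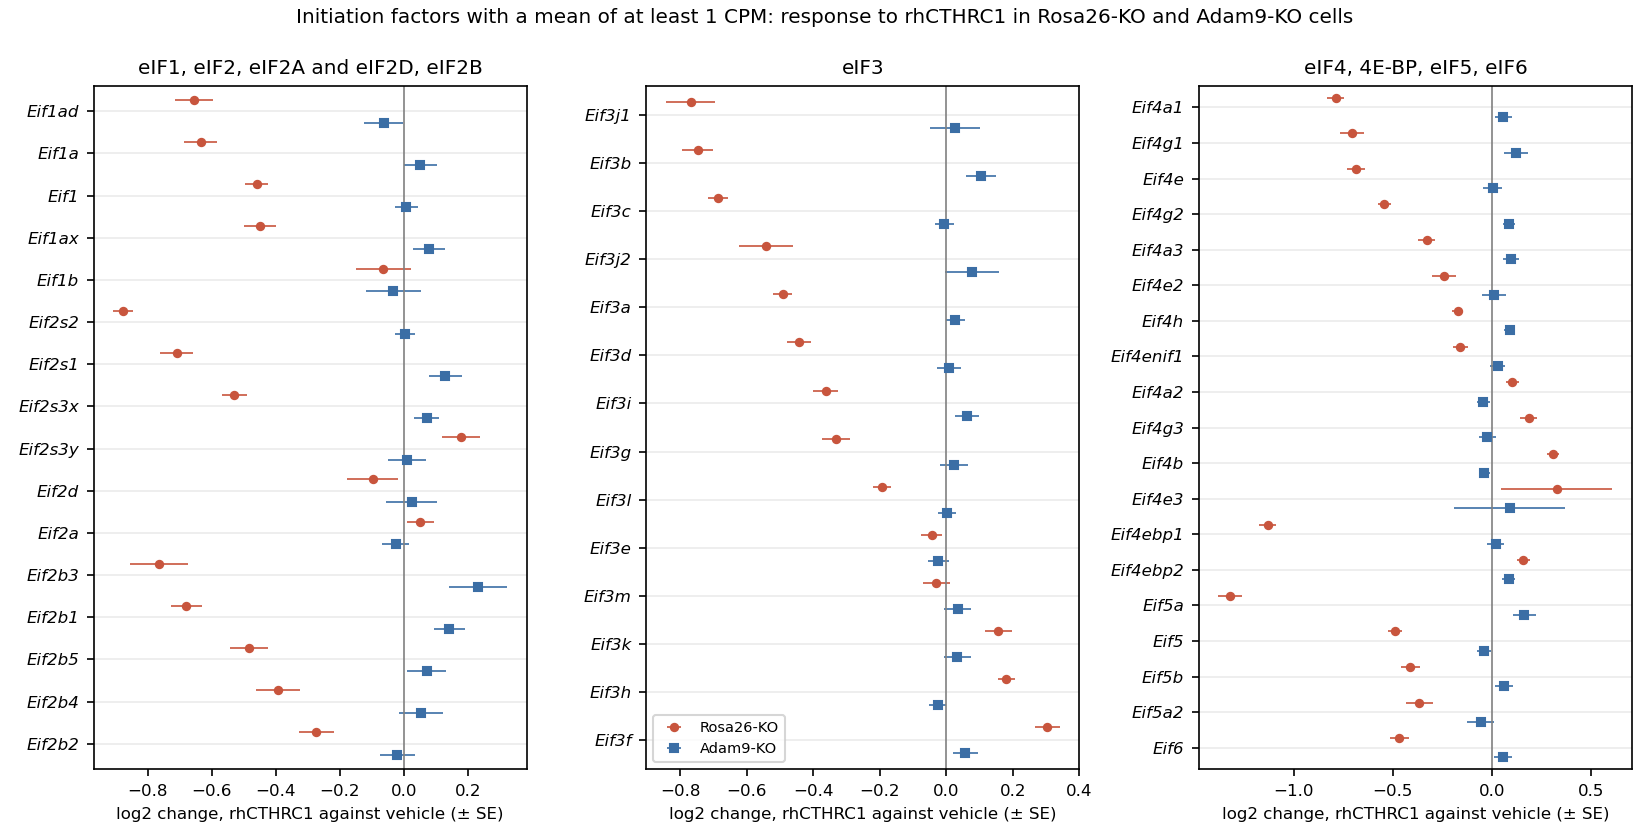
Log2 change with rhCTHRC1 against vehicle (points, bars are SE) of the initiation factors tested with a mean of at least 1 CPM in Rosa26-KO (red circles) and Adam9-KO (blue squares) cells, ordered within families. Red points spread from -1.32 (Eif5a) to 0.33 (Eif4e3, not called, with a wide error), and blue points lie within -0.063 and 0.23.

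Of 13 eIF4 genes tested, 8 fell and 3 rose, beside 23.3% lower and 22% higher of all genes. Eif4e, which binds the cap, had 134, 137 and 132 CPM under vehicle and 80.0, 85.3 and 85.0 CPM with rhCTHRC1 (log2 change -0.68 ± 0.046, adjusted p = 8.49e-10). Eif4a1, the main helicase, had 672, 673 and 658 CPM and 405, 384 and 370.5 CPM (-0.79 ± 0.042), and the scaffold Eif4g1 changed by -0.71 ± 0.061. The treated libraries were the lower ones in all 3. Of their paralogs, only some moved the other way: Eif4a2 by 0.10 and Eif4g3 by 0.19, the latter from 122, 124 and 123 CPM to 140, 144 and 136 CPM. The call for Eif4a2 was lost without vehicle library 3 or treated library 2. Eif4b rose from 1039, 1054 and 1079 CPM to 1295, 1307 and 1329 CPM, again with no overlap (log2 change 0.31 ± 0.029, adjusted p = 6.57e-08). Eif4g2, Eif4a3, Eif4e2, Eif4h and Eif4enif1 fell by 0.54, 0.33, 0.24, 0.17 and 0.16 on the log2 scale.

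The eIF4E-binding proteins, which hold eIF4E away from the scaffold until they are phosphorylated, moved apart from each other. Eif4ebp1 (chr8:27260329-27276674) had 148, 145 and 149 CPM under vehicle and 67.8, 70.6 and 63.1 CPM with rhCTHRC1. This was the second largest fall among the initiation factors (log2 change -1.13 ± 0.045, adjusted p = 6.81e-13). Eif4ebp2 rose by 0.16 ± 0.032, and Eif4ebp3, at under 1 CPM in every library, was not called.

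Other genes of translation were read from lists outside the symbol rule. Beside the counts below stand 22% higher and 23.3% lower of all 18594 genes tested. Some of the counts lie near those shares. All 5 genes of the ATF4 branch fell in Rosa26-KO cells: Atf4 itself from 498 ± 16.2 to 208 ± 16.2 CPM (-1.26 ± 0.044), the asparagine synthetase Asns by 1.64, the pseudokinase Trib3 by 2.12, Ddit3 by 0.92 and Cebpb by 0.47 on the log2 scale. Of the 6 genes for the eIF2 kinases and the subunits that direct a phosphatase to eIF2, the phosphatase subunits Ppp1r15a and Ppp1r15b fell (-0.80 and -0.89), the kinases Eif2ak2 and Eif2ak4 rose (0.36 and 0.21), and Eif2ak1 and Eif2ak3 were not called. Of 9 cytosolic elongation and release factors tested, 2 rose and 6 fell: Eef2, the translocase, rose by 0.29 and Eef1a1, which delivers charged tRNA, by 0.12, while the release factors Gspt1 and Etf1 changed by -0.76 and -0.59. Of 9 mitochondrial translation factors 4 fell and 0 rose, among them the elongation factors Gfm1 (-0.70) and Tufm (-0.50). Of 10 partners and regulators of initiation, 3 rose and 6 fell, with Pdcd4, an inhibitor of eIF4A, higher by 0.49 and Larp1, which binds the mRNAs of ribosomal proteins, lower (-0.57). Of 4 synthetase genes that the symbol rule does not take, Ears2 fell (-0.50) and Fars2, Pars2 and Tarsl2 were not called.

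In Adam9-KO cells no member was called in response to rhCTHRC1. Of 85 tested, 0 were higher and 0 lower by edgeR, as were 0% and 0% of all 18594 genes, and 11 members and 1387 genes had an unadjusted p under 0.05. DESeq2 called 37 genes and 0 members. Yars had 261, 263 and 245 CPM under vehicle and 249, 256 and 254 CPM with rhCTHRC1, and Gars 479, 473 and 454 CPM and 474, 474 and 473 CPM. Eif5a had 499, 507 and 539 CPM and 554, 529.8 and 638 CPM. In each of these 3 genes the groups overlapped. Tars had 369, 364 and 369 CPM and 369, 363 and 360.5 CPM, Yars2 19.4, 15.8 and 17.3 CPM and 17.3, 14.6 and 17.9 CPM, and Eif4b 1169, 1168 and 1122 CPM and 1145, 1147 and 1063 CPM. The summed smooth-muscle markers were at 434 to 459.7 CPM under vehicle and 356 to 444 CPM with rhCTHRC1 in these cells. Over the 20 cytosolic synthetases the log2 changes lay between -0.064 and 0.11, and the 95% intervals of the single genes reached from -0.15 to 0.22. The smallest fall of a cytosolic synthetase in Rosa26-KO cells, -0.47 for Kars, lies outside this range. For the 14 mitochondrial synthetases the intervals reached from -0.36 to 0.36, and for the 49 initiation factors of at least 1 CPM from -0.50 to 0.68. Summed levels were 5545 ± 118 and 5544 ± 55.0 CPM for the cytosolic synthetases, and 11721 ± 66.7 and 12005 ± 333 CPM for the initiation factors (SD, n = 3).

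Tested directly, the 2 knockout backgrounds differed in their response. The Adam9-KO response was higher than the Rosa26-KO response for 60 of 85 members and lower for 6, beside 20.1% and 17.8% of all genes, and for 35 members the difference was higher by at least 1.5-fold, beside 6.31% of all genes. Library size alone gave 53 and 11 and moved the share of higher genes among all those called from 53.1% to 41.3%. The cytosolic synthetases gave 19 higher and 1 lower (median difference 0.99), the mitochondrial ones 6 and 0 (0.27), and the initiation factors 35 and 5 (0.45). Among the members called, the largest differences on the log2 scale were 1.49 ± 0.082 for Eif5a (adjusted p = 1.09e-08), 1.26 ± 0.062 for Yars (adjusted p = 3.70e-11), 1.24 ± 0.051 for Tars and 1.19 ± 0.066 for Iars. Among the initiation factors Eif4ebp1 (1.15 ± 0.062) and Eif2b3 (1.0 ± 0.13) followed, and among the mitochondrial synthetases Yars2 (1.08 ± 0.16), Mars2 (0.74 ± 0.13) and Nars2 (0.68 ± 0.18). The 6 members with a negative difference were Eif4b (-0.35), Eif3f (-0.25), Eif3h (-0.21), Eif4g3 (-0.21), Qars (-0.19) and Eif4a2 (-0.15), the last not called without Rosa26-KO vehicle library 3, treated Rosa26-KO library 2 or Adam9-KO vehicle library 2. The differences for Aars, Gars, Wars, Lars2, Eif2s1, Eif4e, Eif4a1 and Eif6 were 1.05, 1.16, 0.71, 0.27, 0.84, 0.69, 0.85 and 0.52, all called, though Lars2 was not without Adam9-KO vehicle library 2 or treated library 1 or with library size alone.

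**Figure D4:**
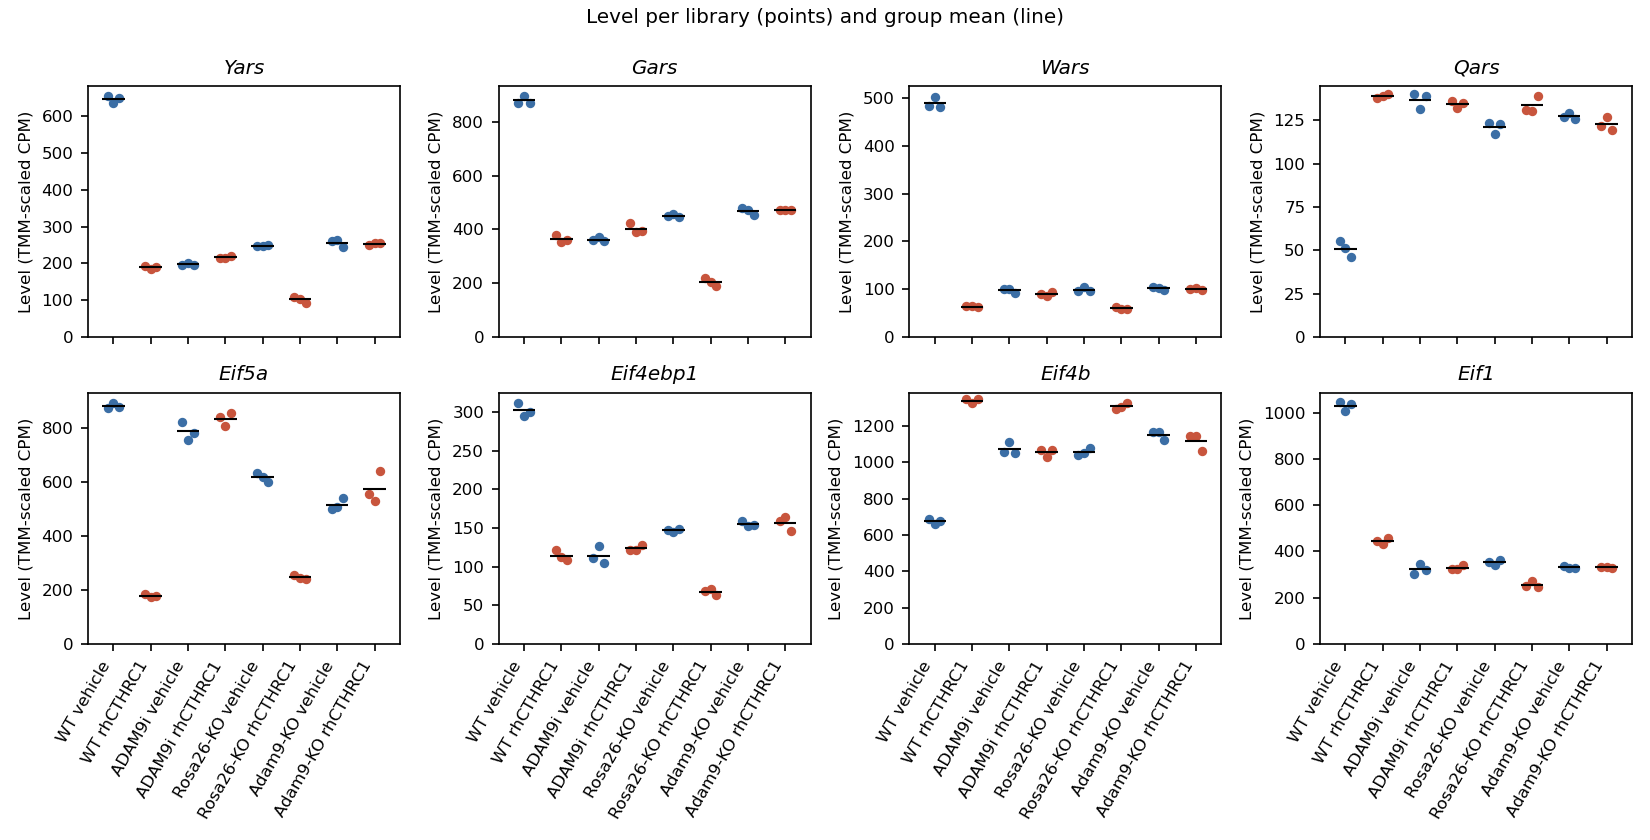
Level (TMM-scaled CPM, vertical axis from 0) of 4 synthetases and 4 initiation factors in each library (points, blue for vehicle and red for rhCTHRC1), with the group mean (line). Yars, Gars, Eif5a and Eif4ebp1 are lowest in a treated Rosa26-KO or WT group, the 3 WT vehicle libraries stand far above the rest for Yars, Gars, Wars, Eif4ebp1 and Eif1 and below it for Qars and Eif4b, and the 2 Adam9-KO groups lie side by side.

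The 2 knockout backgrounds differed by smaller amounts when given vehicle than when given rhCTHRC1. Under vehicle, 1 of 85 members was higher in Adam9-KO than in Rosa26-KO cells and 27 were lower, beside 6.37% and 8.83% of all genes. At 1.5-fold 0 members were called, beside 205 genes higher and 101 lower of all 18594. The split depended on the scaling: library size alone gave 4 higher and 20 lower, limma on FPKM gave 5 and 14, and library size alone moved the share of higher genes among all those called from 41.9% to 63.6%. The count was 18 without Rosa26-KO vehicle library 1 and again 18 without Adam9-KO vehicle library 2. Of the cytosolic synthetases, Dars (-0.23), Farsa (-0.19), Rars (-0.18), Hars (-0.16) and Vars (-0.13) were lower. Among the members called, Eif1a had the largest difference: 142, 148 and 144 CPM in Rosa26-KO and 95.1, 107 and 109 CPM in Adam9-KO cells, with no overlap (-0.49 ± 0.052, adjusted p = 1.45e-05). Eif2s1, Eif4e and Eif4a1 were lower too (-0.27, -0.27 and -0.29), as were Yars2 and Mars2 (-0.37 and -0.38), and Eif4b was higher (0.11). Eif5a was lower as well (-0.27 ± 0.058). Several of these calls were lost when 1 library was left out: those for Rars, Vars, Mars2, Yars2 and Eif4b without Rosa26-KO vehicle library 1, those for Hars, Rars, Vars and Yars2 without library 2, those for Rars and Mars2 without Adam9-KO vehicle library 1, those for Rars, Vars, Mars2 and Yars2 without library 2, and that for Yars2 without library 3.

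With rhCTHRC1 the same pair of backgrounds differed widely: 60 of 85 members were higher in Adam9-KO cells and 9 lower, beside 21% and 19.6% of all genes. This comparison and the Rosa26-KO response share the treated Rosa26-KO libraries. Of the cytosolic synthetases 19 were higher and 1 lower, of the mitochondrial ones 8 and 0, and of the initiation factors 33 and 8. Yars differed by 1.30 ± 0.044, Iars by 1.27 ± 0.048, Gars by 1.20 ± 0.038 and Aars by 1.10 ± 0.028, and among the initiation factors Eif5a by 1.21 ± 0.059 and Eif4ebp1 by 1.21 ± 0.045. Lower in Adam9-KO cells were Eif3f (-0.30), Eif4b (-0.23) and Qars (-0.13), and the call for Qars was lost without treated Rosa26-KO library 3 or treated Adam9-KO library 3.

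The WT vehicle libraries held a different synthetase profile from every other vehicle group. Against the mean of the Rosa26-KO, Adam9-KO and ADAM9i vehicle groups, 58 of 86 members were higher and 13 lower, beside 28.6% and 30.9% of all 19891 genes tested, and library size alone gave 52 and 17. Of the cytosolic synthetases 17 were higher and 2 lower, of the mitochondrial ones 6 and 5, and of the initiation factors 35 and 6. Their summed cytosolic level was 9382, 9234 and 9248 CPM, against 4854, 4907 and 4747 CPM in ADAM9i, 5587, 5571 and 5527 CPM in Rosa26-KO and 5646, 5572 and 5416 CPM in Adam9-KO vehicle libraries. For 16 of the 20 cytosolic genes all 3 WT values were above all 9 others, and for 2 below. How often this held over all genes was not counted. The 3 fibroblast markers were lower in these libraries and, of the 6 smooth-muscle markers, 3 were lower and 1 higher.

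Wars differed the most. Its WT vehicle libraries held 483, 503 and 481 CPM, against 99.9, 101 and 92.1 CPM in ADAM9i, 95.8, 104 and 95.8 CPM in Rosa26-KO and 105, 102 and 98.9 CPM in Adam9-KO cells. The WT values were all several times the others (log2 difference 2.30 ± 0.031, adjusted p = 4.74e-30). Yars (1.48 ± 0.028), at 654, 636 and 649 CPM, and Farsb (1.33 ± 0.040), at 195, 197 and 194 CPM against 79.2, 77.8 and 75.5 CPM in Rosa26-KO libraries, came next. Qars went the other way, with 55.2, 51.1 and 46.0 CPM in WT vehicle libraries against 140.2, 131 and 139 CPM in ADAM9i ones, all 3 WT values being under those of the 9 others (-1.34 ± 0.040). Hars was also lower (-0.38 ± 0.031) and Kars was not called (-0.053 ± 0.027). Aars and Gars were higher by 0.61 and 1.05.

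Among the initiation factors Eif1, which guards start codon choice, had 1046, 1007 and 1039 CPM in WT vehicle libraries and 354, 342 and 361 CPM in Rosa26-KO ones (1.62 ± 0.029). Eif2b3 (1.61 ± 0.060), Eif1ad (1.19 ± 0.039) and Eif6 (1.17 ± 0.034) were higher as well, as were Eif4ebp1 (1.14), Eif4e (1.05) and Eif2s1 (0.59). Eif4a1 differed by 0.12, a call lost with library size alone and with limma on FPKM. Eif4b was lower, with 687, 660 and 680 CPM against 1039, 1054 and 1079 CPM in Rosa26-KO cells (-0.70 ± 0.024), and so were Eif2b4 (-0.45) and Eif3l (-0.21). Of the 14 mitochondrial synthetases 6 were called higher and 5 lower, beside 28.6% and 30.9% of all genes. Among them, Nars2 (1.28 ± 0.10), Mars2 (0.84 ± 0.064) and Yars2 (0.48 ± 0.076) were higher, and Cars2 (-0.75 ± 0.059) and Sars2 (-0.40 ± 0.075) lower. Nars2 had 21.5, 26.1 and 27.6 CPM and Cars2 15.1, 16.2 and 15.6 CPM in WT vehicle libraries, against 10.7, 10.7 and 8.38 CPM and 24.6, 26.3 and 28.6 CPM in Rosa26-KO ones. Lars2 was not called (-0.13 ± 0.15). All 5 genes of the ATF4 branch were higher in WT vehicle cells, from 0.80 for Atf4 to 2.22 for Ddit3.

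The WT response to rhCTHRC1 is measured against those libraries. Of 86 members 68 fell and 10 rose, beside 30.8% lower and 32.2% higher of 18816 genes, and the cytosolic synthetases gave 19 and 1, the mitochondrial ones 8 and 5 and the initiation factors 41 and 4. Library size alone gave 61 lower and 12 higher and moved the median of all genes from 0.033 to 0.21, as it moved that of the ADAM9i minus WT response from -0.042 to -0.24 and that of ADAM9i against WT with rhCTHRC1 from -0.025 to -0.16. The share of higher genes among all those called in the WT response went from 51.1% to 61.4%. The members' median was -0.78. Wars fell from 483, 503 and 481 CPM to 63.8, 64.2 and 62.0 CPM (-2.97 ± 0.044), Farsb changed by -2.32 ± 0.047 and Eif5a by -2.33 ± 0.033. Qars rose from 55.2, 51.1 and 46.0 CPM to 138, 139 and 140.2 CPM (1.44 ± 0.050) and Eif4b by 0.97 ± 0.027. No treated library overlapped a vehicle library in these 5 genes. The fibroblast markers rose too (3 of 3), and of the 6 smooth-muscle markers 3 fell and 2 rose.

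With other vehicle libraries as the control the median WT change of the cytosolic synthetases, -1.01 against WT vehicle, was smaller. Such values also hold the difference between backgrounds. Against Rosa26-KO vehicle, 11 members were higher and 64 lower, beside 24.4% and 25.7% of all genes, with 1 and 18 among the cytosolic synthetases and a median of -0.45 there, 9 and 38 among the initiation factors and 1 and 8 among the mitochondrial synthetases. Against ADAM9i vehicle, 11 were higher and 58 lower, beside 24.6% and 25.8%, with 2 and 13 among the cytosolic synthetases and a median of -0.23, 8 and 35 among the initiation factors and 1 and 10 among the mitochondrial synthetases, where WT vehicle as control gave 5 higher. Wars was at -0.64 ± 0.042 and -0.62 ± 0.042 under these controls, Farsb at -0.97 ± 0.054 and -1.10 ± 0.054, Hars at -0.84 ± 0.037 and -0.99 ± 0.037, and Yars2 at -1.40 ± 0.099 and -1.37 ± 0.099. Eif5a kept a large change under each (-1.80 ± 0.049 and -2.15 ± 0.050), as did Eif4a1 (-1.02 ± 0.043 and -1.23 ± 0.043), Eif3b (-1.16 ± 0.040 and -1.28 ± 0.041) and Eif2s1 (-0.97 ± 0.047 and -1.0 ± 0.047). Gars, by contrast, was at -1.29 against its own vehicle, -0.31 against Rosa26-KO and 0.0077 against ADAM9i vehicle, and Eif4ebp1 at -1.42, -0.37 and 0.0051. Eif1 changed sign, from -1.23 to 0.34 and 0.46. Eif4b was at 0.34 and 0.32, and Qars at 0.20 and 0.024, the last not called. Aars was at -0.49 and -0.096, Eif4e at -0.70 and -0.67, and Eif6 at -0.39 and -0.71, all called. Lars2, at -0.35 and -0.27, was called under neither control.

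**Figure D5:**
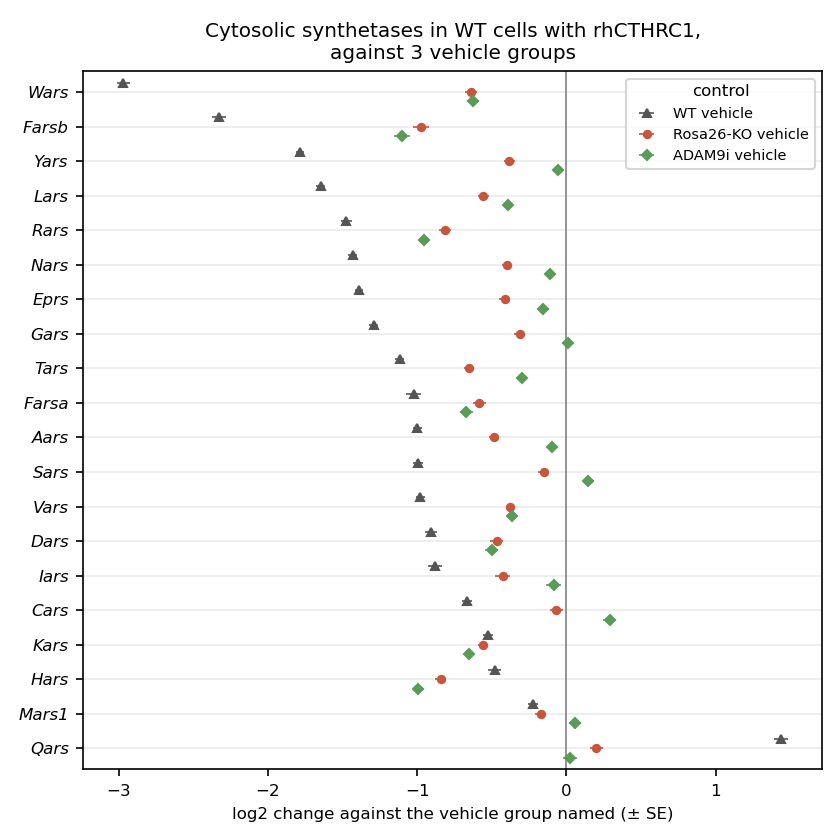
Log2 change (points, bars are SE) of the 20 cytosolic synthetases in WT cells with rhCTHRC1 against WT vehicle (grey triangles), Rosa26-KO vehicle (red circles) and ADAM9i vehicle (green diamonds). Wars lies at -2.97 against WT vehicle and at -0.64 and -0.62 against the others, and Qars moves from 1.44 to 0.20 and 0.024.

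In ADAM9i cells rhCTHRC1 was followed by small rises. Of 86 members 14 were higher and 0 lower, beside 2.66% and 1.32% of all genes. At 1.5-fold 0 members were called, beside 36 genes higher and 34 lower of all 18816. Of 7 cytosolic synthetases called, Iars had 202, 211 and 182 CPM under vehicle and 236, 225 and 228 CPM with rhCTHRC1, the treated libraries just above the others (0.21 ± 0.046, adjusted p = 0.0126). Tars (0.19 ± 0.033), Vars (0.19 ± 0.030), Gars (0.15 ± 0.032), Mars1 (0.13 ± 0.036), Nars (0.13 ± 0.032) and Yars (0.13 ± 0.028) were the other 6. Of 6 initiation factors called, Eif6 had 128, 129.7 and 139.8 CPM and 159, 153 and 161 CPM (0.25 ± 0.040), followed by Eif1a (0.19 ± 0.042), Eif4e (0.17 ± 0.037), Eif2s2 (0.13 ± 0.032), Eif3b (0.11 ± 0.029) and Eif4g1 (0.11 ± 0.024). Mars2 was the mitochondrial one (0.38 ± 0.075). Aars (0.033 ± 0.028), Wars (-0.12 ± 0.041), Lars2 (0.034 ± 0.24), Eif4ebp1 (0.12 ± 0.056), Eif2s1 (0.10 ± 0.039) and Eif4a1 (0.040 ± 0.038) were not called. The count rested on single libraries and on the tool: it was 6 without treated ADAM9i library 1, 8 without vehicle library 3 and 9 without treated library 3, while limma on FPKM gave 8 and DESeq2 22, of which 21 were higher and 1 lower. Tars, Vars, Eif6 and Mars2 stayed called whichever of the 6 ADAM9i libraries was left out. Gars, Iars and Eif4e were not called without vehicle library 3 or treated library 1, Eif1a also not without vehicle library 2, and Yars not without treated library 3, while Mars1, Nars, Eif2s2, Eif3b and Eif4g1 were lost with at least 3 different libraries each. The summed smooth-muscle markers were at 465 to 502 CPM under vehicle and 377 to 423 CPM with rhCTHRC1, and none of the 6 was called. The summed fibroblast markers were at 238 to 264 CPM and 215 to 219.5 CPM, without overlap, and 1 of the 3, Pdgfra, was called lower (-0.22 ± 0.045).

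The difference between the ADAM9i and WT responses was positive for 63 members and negative for 9 of 86, beside 27.8% and 28.3% of all genes. It includes the WT vehicle libraries. Library size alone gave 61 and 13 and moved the share of higher genes among all those called from 49.5% to 38.5%. With the Rosa26-KO response in place of the WT response it was positive for 61 and negative for 7, beside 19.1% and 16.4% of all 19891 genes tested. In the direct test the difference was 2.84 ± 0.059 for Wars, 2.39 ± 0.064 for Farsb, 2.41 ± 0.045 for Eif5a, 2.01 ± 0.11 for Yars2 and -1.46 ± 0.069 for Qars.

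ADAM9i and WT cells with rhCTHRC1 can be set side by side without the WT vehicle libraries. Of 86 members 63 were higher and 10 lower in ADAM9i cells, beside 28% and 26.1% of all genes, and library size alone gave 54 and 15 and moved the share of higher genes among all those called from 51.8% to 39.2%. Of the cytosolic synthetases 16 were higher and 2 lower, of the mitochondrial ones 10 and 1, and of the initiation factors 37 and 7. Of the 6 smooth-muscle markers 3 were higher and 0 lower in ADAM9i cells, and of the 3 fibroblast markers 0 were higher and 2 lower. Eif5a had 183, 173 and 176 CPM in WT and 839, 805 and 856 CPM in ADAM9i cells. The groups were far apart (2.24 ± 0.033, adjusted p = 6.90e-19). Farsb differed by 1.18 ± 0.046, Hars by 1.06 ± 0.042, Yars2 by 1.63 ± 0.080, Eif3b by 1.40 ± 0.030, Eif4a1 by 1.28 ± 0.039, Eif2s1 by 1.11 ± 0.040 and Eif4e by 0.86 ± 0.038. Aars (0.14 ± 0.028) and Gars (0.15 ± 0.032) differed little, and both calls were lost with library size alone and with limma on FPKM. Cars (-0.16 ± 0.033), Sars (-0.15 ± 0.031), Eif1 (-0.42 ± 0.039) and Eif4e3 (-1.01 ± 0.24) were lower in ADAM9i cells, and Eif4ebp1 was not called (0.13 ± 0.056).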

How the data were processed

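The deposited table held raw counts per gene and FPKM for the 24 libraries, and the labels name a stranded TruSeq kit. HISAT2, StringTie, DESeq2 and GRCm38 are named in the submitters' processing notes without their roles, and the aligner's settings, the annotation and whether counting used strand were not stated there. From the authors' counts, edgeR 4.0.16 (R 4.3.3) gave TMM-scaled CPM and quasi-likelihood tests with Benjamini-Hochberg adjustment over all genes kept by its filter on low counts. The Rosa26-KO and Adam9-KO libraries were fitted together and the WT and ADAM9i libraries together (12 libraries each), a grouping made here, and all 24 in 1 fit for WT vehicle against the other vehicle groups and for WT with other controls. The authors' FPKM served for levels per length and for limma 3.58.1 on log2(FPKM + 1), and DESeq2 1.42.0, RLE scaling, library size alone, no filter, a fold of at least 1.5, a replicate block and leaving out each library were the other alternatives. The scripts were tested on simulated data. The members and lists were chosen with earlier results of these data known. Values per library were due for the 3 largest rises and falls of each class and for Aars, Gars, Wars, Lars2, Eif4ebp1, Eif2s1, Eif4e, Eif4a1 and Eif6. At least 62 further pairs of gene and comparison were named after their values were seen. Promoters came from RefSeq (GRCm38.p6). The values of 1 member and 1 promoter stretch are not reported here. Figures used matplotlib 3.10.9.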

Additional observations from a re-analysis of the deposited data

Results flagged for a closer look

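The test of the difference between the Adam9-KO and Rosa26-KO responses to rhCTHRC1 called 66 of 85 members. The log2 differences singled out per class were 1.26 for Yars, -0.19 for Qars, 1.08 for Yars2, 1.49 for Eif5a and -0.35 for Eif4b, all called by edgeR's quasi-likelihood test.

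The same kind of test between the ADAM9i and WT responses called 72 of 86 members, with log2 differences of 2.84 for Wars, -1.46 for Qars, 2.01 for Yars2, 2.41 for Eif5a and -1.0 for Eif4b. These include the WT vehicle libraries, which differ from the other vehicle groups.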

How the results depend on the processing

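With a fold of at least 1.5 as a further condition, the members called were 31 instead of 71 in the Rosa26-KO response, 35 instead of 66 in the Adam9-KO minus Rosa26-KO response, 0 instead of 28 between the knockouts under vehicle and 23 instead of 69 with rhCTHRC1. The same condition left 0 of 14 in the ADAM9i response, 33 of 73 in ADAM9i against WT with rhCTHRC1 and 33 of 71 in WT vehicle against the other vehicle groups. Of all 18594 genes, 1788 were higher and 1023 lower at that fold in the Rosa26-KO response. The counts were 1174 and 1715 in the Adam9-KO minus Rosa26-KO response, 205 and 101 between knockouts under vehicle and 736 and 1323 with rhCTHRC1. Of 18816 genes they were 36 and 34 in the ADAM9i response and 2289 and 2678 in ADAM9i against WT with rhCTHRC1. Of 19891 genes, 2916 were higher and 3616 lower in WT vehicle. The ADAM9i response gave 8 calls with limma on FPKM and 22 with DESeq2, and the cause was not tested.

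Leaving out each library in turn gave 6 to 13 members called in the ADAM9i response, 18 to 26 between the knockouts under vehicle, 65 to 69 between them with rhCTHRC1, 67 to 71 in the Rosa26-KO response and 0 to 0 in the Adam9-KO response. It gave 63 to 68 in the Adam9-KO minus Rosa26-KO response, 75 to 78 in the WT response, 71 to 74 in the ADAM9i minus WT response, 72 to 74 in ADAM9i against WT with rhCTHRC1 and 68 to 71 in WT vehicle against the other vehicle groups. The lowest ADAM9i count, 6, was without treated library 1.

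Over all members, 53 pairs of a change and an alternative were counted as reversed in sign. Among the named changes there were 8 such pairs, with Eif1 and Cars2 in the WT response counted under each of the other vehicle controls. Against Rosa26-KO vehicle the WT changes were 0.34 for Eif1 and -0.049 for Cars2, and against ADAM9i vehicle 0.46 for Eif1, 0.0077 for Gars, 0.0051 for Eif4ebp1 and -0.088 for Cars2. Cars2 was at 0.36 in the ADAM9i minus WT response with the Rosa26-KO response in place of that of WT, and Aars at -0.00653 between ADAM9i and WT with rhCTHRC1 by limma.

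Same-numbered libraries did not deviate together (correlations of -0.045 to 0.049), so no large shift common to a number was seen. This cannot tell whether same-numbered libraries were prepared in parallel. A replicate block gave 73 calls in the Rosa26-KO response, 66 in the Adam9-KO minus Rosa26-KO response, 27 between the knockouts under vehicle, 13 in the ADAM9i response and 0 in the Adam9-KO response.

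All changes rest on 3 libraries a group. The levels of Eif4ebp3, Eif4e3 and Nars2 are low and their errors wide. CPM is a share of all transcripts, so a change common to all genes is not seen.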
